A study of Mus musculus with 63 samples.

Results

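The hearts described here are 31 libraries with high and 32 with low expression of Myl7, the gene for the atrial myosin regulatory light chain, out of 63 mouse heart libraries in all. Within each strain a library was called high where Myl7 lay above the strain median, and low where it lay at or below it. Levels are in CPM, the counts of a gene divided by the size of its library after scaling by the trimmed mean of M-values (TMM). They come from the inbred strains that founded the Diversity Outbred (DO) mice, labelled 129, AJ, B6, NOD, NZO, PWK and WSB (8 libraries each, 4 high and 4 low) and Cast (7 libraries, 3 high and 4 low). All mice had a diet high in fat and sugar, with 45% fat, so both classes carry the same diet and the same strains. No genotype, transgene or treatment separates them. The labels used here give neither sex nor age, and nothing beyond the titles says that the libraries are separate animals, so p-values measure the spread between these libraries.

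Because a measured gene made the classes, each difference below is variation that goes with Myl7 among libraries of a strain, and the Myl7 values are a description with no test. In bulk tissue, fewer cells of a type and less RNA per cell cannot be told apart.

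Atrial and ventricular heart muscle cells build their contractile filaments from partly different genes. Atrial cells use the light chains encoded by Myl7 and Myl4, the sarcoplasmic reticulum calcium pump inhibitor sarcolipin (Sln) and the secreted peptide ANP (Nppa), whereas ventricular cells use Myl2 and Myl3. In the adult heart the atria are a small, thin-walled part that joins the great veins, the epicardial fat and the sinoatrial node.

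Upstream sequences are shown for the gene that made the classes, for Stard10 and Mybphl, which had small p-values in the comparison, and for Nppa, an atrial marker that did not pass it. Each is the 250 bases before the gene's start in RefSeq (GRCm38), 5′ to 3′ on the gene's strand, with capitals at motif matches. All sequences shown hold a match to at least 1 of the motifs described below, so they are not typical of the genes that passed. Myl4, with a smaller p than Mybphl, had no match to any of these motifs and is not shown. Gja5, Cntfr, Olfm1 and Camk1d also had none and are not shown.
Myl7, chr11:5898783-5899032, minus strand: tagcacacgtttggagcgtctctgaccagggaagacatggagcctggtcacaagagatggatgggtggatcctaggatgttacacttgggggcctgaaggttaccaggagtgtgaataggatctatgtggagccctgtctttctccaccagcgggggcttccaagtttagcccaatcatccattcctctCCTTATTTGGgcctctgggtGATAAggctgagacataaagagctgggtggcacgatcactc
Stard10, chr7:101316836-101317085, plus strand: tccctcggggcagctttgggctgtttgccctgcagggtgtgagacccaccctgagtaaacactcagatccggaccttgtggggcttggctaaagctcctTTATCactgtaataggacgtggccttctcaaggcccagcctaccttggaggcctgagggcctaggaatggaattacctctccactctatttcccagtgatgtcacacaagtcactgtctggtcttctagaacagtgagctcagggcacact
Mybphl, chr3:108364661-108364910, plus strand: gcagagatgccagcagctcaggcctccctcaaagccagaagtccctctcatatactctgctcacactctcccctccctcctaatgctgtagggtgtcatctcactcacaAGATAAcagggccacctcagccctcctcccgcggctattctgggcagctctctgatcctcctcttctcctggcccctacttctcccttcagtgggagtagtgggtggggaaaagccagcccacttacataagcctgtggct
Nppa, chr4:148000472-148000721, plus strand: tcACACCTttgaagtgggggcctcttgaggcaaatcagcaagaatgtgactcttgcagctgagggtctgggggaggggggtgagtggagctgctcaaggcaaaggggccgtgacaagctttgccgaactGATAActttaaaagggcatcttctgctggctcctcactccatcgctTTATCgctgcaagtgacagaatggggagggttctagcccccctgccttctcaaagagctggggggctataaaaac

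The RefSeq table matched 11 of the 19 genes looked for, and 10 of these were Myl7 or genes that passed the test. Some RefSeq starts lay away from the gene start in the deposited annotation. The distance was 127709 bases for Gja5, 1052 for Cntfr and 848 for Fgf12, which holds the T-box match counted below. A first search, on both strands, used 5 motifs. The T-box half-site AGGTGT was found in 1 of the 10 promoters, against 11.8% of 32851 promoters of the same length. The motif AGATAA of the GATA factors was found in 1, against 9.99% of all promoters. The nuclear receptor half-site AGGTCA was found in 0 of the 10, against 14%. An NKX2-5 motif, CACTTAA, was found in 0, against 2.1%. The MEF2 core motif TATTTATA was also found in 0, against 1.56%. The other pair of motifs was added after the promoter sequences had been read, so their counts were chosen in part by the matches. A shorter GATA motif, GATAA, which also counts every match of the longer one, was found in 4 of the 10, against 22.6% of all promoters, and the CArG box in 1 (Myl7), against 1.47%. A match is a description of the letters, not a binding site.

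Myl7 (chr11:5896637-5898782, minus strand) ran from 82.7 to 234.9 CPM in the low class, with a median of 155.7, and from 153.2 to 353.6 in the high class, with a median of 237.8. The strains differ in level, so the classes overlap across strains and are apart within each one by construction. Averaged over strains, the means were 232.4 and 158.7 CPM. The mean over strains of the log2 difference was 0.58, which is 1.49-fold. That difference ran from 0.36 in NZO to 0.82 in B6. In some strains the line between the classes fell in a narrow gap: in B6 the highest low library had 183.3 CPM (B6_7) and the lowest high library 183.6 (B6_4), and in NZO the values were 152.2 and 153.2. In PWK the same neighbours stood at 183.9 and 224.4 CPM. There were 5 libraries below 65% of their strain's median, and all of them are in the low class (AJ_2, B6_1, B6_3, PWK_5 and WSB_6).

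**Figure D1:**
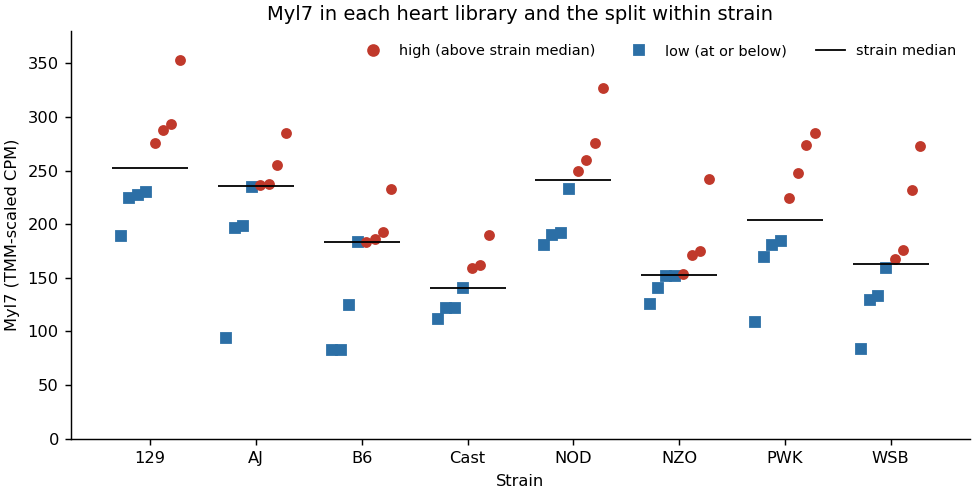
Myl7 in TMM-scaled CPM (vertical axis) for each of the 63 libraries by strain (horizontal axis), with circles for high, squares for low and a line at the strain median. The gap at the median is narrow in B6 (183.3 and 183.6 CPM) and wide in PWK (183.9 and 224.4 CPM).

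The depth per library was 21.8 M to 42.9 M estimated counts, with means of 30.8 ± 4.16 M (SD, n = 31) in the high and 30.5 ± 3.87 M (SD, n = 32) in the low class. Mitochondrial genes took 23.0 ± 4.11% (SD, n = 31) and 22.8 ± 3.38% (SD, n = 32). Neither these nor the TMM factor or the library number in the titles differed beyond the spread within strains (two-sided permutation tests within strain with 1e+05 resamples, adjusted p = 0.986 for each of 4). Xist exceeded 100 CPM in 13 of 31 high and 18 of 32 low libraries. WSB_1, the highest Myl7 library of WSB, stands apart in other genes too: its Myl2 was 6427 CPM, against 3415 to 4296 in the other 7 WSB libraries.

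Hearts with high Myl7 had higher levels of 17 genes, and of no gene lower levels, among 16424 tested (0.104%; edgeR's quasi-likelihood test with strain as a block, Benjamini-Hochberg adjusted p under 0.05). At an unadjusted p under 0.05 there were 528 genes higher and 265 lower, and DESeq2's Wald test called 22 higher and 0 lower. Where no gene differs, a share of about 0.05 of tested genes would have an unadjusted p under 0.05. The counts of 528 and 265 together lie near that share. The 17 include 7 genes of the atrial list: Myl4, Mybphl, Sln, Stard10, Fgf12, Sbk3 and Gja5. The fitted differences were between 0.26 and 0.61 log2 units. Of the 17, 16 had a higher class mean in all 8 strains, as had 0.658% of all tested genes, and Tusc5 had it in 7. The test picked the 17 from these same libraries, so their shared direction is in part built in and is only a description. Without the 5 libraries under 65% of the strain median, left out after seeing the data, 5 genes rose: Stard10, Myl4, Mybphl, Sln and Rxfp1. Without strain 129, B6 or PWK the count was 9, 8 or 7. With classes from the strain median of Sln, 13 genes rose, 7 of them among the 17, while 9 of the 17 lost their call, Gja5, Fgf12 and Rxfp1 among them. The sources used here do not say whether reads were counted by strand, so reads of Nppa and of 8 of the 17 (Stard10, Myl4, Mybphl, Ppp1r1b, Cacna1h, Fras1, Gja5 and Camk1d) cannot be told apart from those of annotated genes that overlap them on the other strand.

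Myl4 (chr11:104550663-104595753, plus strand), the atrial essential light chain, ran from 86.4 to 326.8 CPM in the low class (median 206.7) and from 174.4 to 469.2 in the high class (median 287.8). Every high library was above every low library in 129, Cast, NOD and PWK, and the classes overlapped in the other strains. The fitted log2 difference was 0.48 ± 0.07 (SE; edgeR adjusted p = 0.000196). In B6 the overlap came from B6_7, classed as low by a margin of less than 1 CPM, whose Myl4 of 311.4 CPM was the highest of that strain.

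Sln (chr9:53850251-53853844, plus strand) ran from 15.8 to 58.1 CPM in the low class (median 37.4) and from 23.7 to 80.8 in the high class (median 52.9). The classes were apart in NOD, where the low libraries had 42.0 to 51.4 CPM and the high ones 63.2 to 77.0, and in PWK. The log2 difference was 0.42 ± 0.07 (SE; edgeR adjusted p = 0.000992), higher in 8 of 8 strains.

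Mybphl (chr3:108364911-108380057, plus strand), a relative of cardiac myosin-binding protein C found in atria, ran from 8.12 to 40.2 CPM in the low class (median 22.0) and from 14.96 to 50.4 in the high class (median 32.0). Its classes were apart in 129, AJ, NOD and PWK. The log2 difference was 0.48 ± 0.08 (SE; edgeR adjusted p = 0.00053).

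Stard10 (chr7:101317086-101346626, plus strand), which encodes a phospholipid transfer protein, had the smallest p of all tested genes with a smaller fold. It ran from 18.2 to 39.4 CPM in the low class (median 26.9) and from 23.5 to 52.4 in the high class (median 35.0). The libraries of 129, AJ, Cast and NOD did not overlap, and the log2 difference was 0.32 ± 0.05 (SE; edgeR adjusted p = 6.74e-05). Over all pairs of a gene and a strain, the classes were apart with high above low in 1.31%. Only 4 genes (0.0244% of those tested) had no overlap in at least 4 strains: Stard10, Myl4, Mybphl and Gja5.

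Gja5, the connexin 40 gene of atrial muscle, the conduction system and arterial endothelium, was apart in B6, NZO, PWK and WSB. Its log2 difference was 0.31 ± 0.06 (SE; edgeR adjusted p = 0.0104). The strains differed in level, with 8.58 ± 1.52 CPM (SD, n = 8) in AJ and 31.2 ± 5.3 (SD, n = 8) in PWK, so the split within strain was small beside the spread across strains.

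The other atrial-list genes that rose were Fgf12, which modulates voltage-gated sodium channels, and Sbk3, a kinase gene. Fgf12 had means of 9.66 ± 2.87 CPM (SD, n = 31) in the high and 6.90 ± 2.84 (SD, n = 32) in the low class, a log2 difference of 0.49 ± 0.10 (SE; edgeR adjusted p = 0.00686). Sbk3 had means of 48.4 ± 12.8 CPM (SD, n = 31) and 35.7 ± 11.98 (SD, n = 32), a log2 difference of 0.44 ± 0.09 (SE; edgeR adjusted p = 0.0189).

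Outside that list the 17 include genes of several kinds. Cacna1h, a T-type calcium channel gene, rose by a log2 difference of 0.37 ± 0.07 (SE), with strain means from 2.33 ± 0.345 CPM (SD, n = 8) in AJ to 26.9 ± 7.59 (SD, n = 8) in B6. Rxfp1, the relaxin receptor gene, rose by 0.41 ± 0.07, and Cntfr, a cytokine receptor subunit gene, by 0.38 ± 0.08. Ppp1r1b (the phosphatase inhibitor DARPP-32) had the largest fitted difference of the 17, at 0.61 ± 0.12, with class medians of 3.12 and 2.19 CPM. Fras1, an extracellular matrix gene, rose by 0.45 ± 0.09, and the vesicle-trafficking gene Sytl2 by 0.34 ± 0.06. Plekha7 (a junction protein gene), Olfm1, Camk1d and Tusc5, an adipocyte gene, rose by 0.31 ± 0.06, 0.26 ± 0.05, 0.28 ± 0.06 and 0.54 ± 0.12. Camk1d and Tusc5 lay nearest the threshold (edgeR adjusted p = 0.0378 and 0.0438), and lost their calls in 31 and 33 of the 63 fits that left out 1 library.

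**Figure D2:**
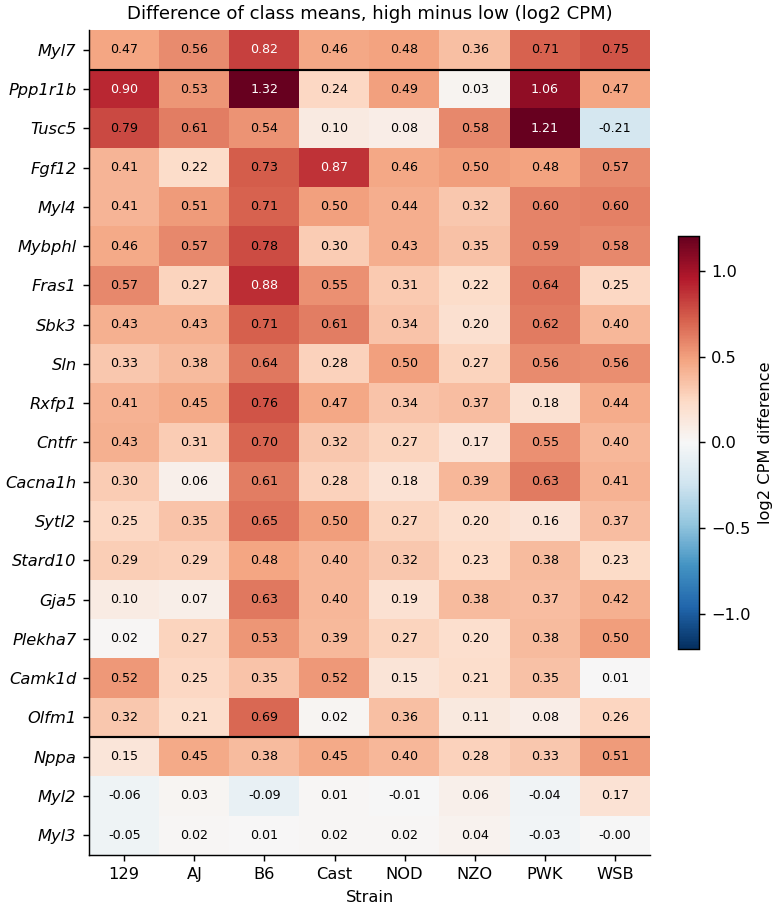
Difference of class means (high minus low, log2 CPM) in each strain (columns) for Myl7, the 17 genes that passed the test, and Nppa, Myl2 and Myl3 (rows). The 17 are positive in every strain apart from Tusc5 in WSB (-0.21), while Myl2 and Myl3 stay between -0.09 and 0.17.

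Nppa (chr4:148000722-148002079, plus strand), named among the atrial markers, did not pass. It ran from 245.7 to 1358 CPM in the low class (median 650.0) and from 576.8 to 1408 in the high class (median 793.1). The log2 difference was 0.30 ± 0.10 (SE; edgeR adjusted p = 0.527), positive in 8 of 8 strains and apart in 1. B6_7 and WSB_4, both low by Myl7, had the highest Nppa of their strains, at 1358 and 917.6 CPM. Without the libraries nearest the strain median, Nppa was higher by 0.50 (edgeR adjusted p = 0.00563). Without the 5 libraries under 65% of the strain median its difference was 0.18 (adjusted p = 0.9998).

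Of the whole atrial list, 21 genes besides Myl7 were tested: 7 rose, 14 did not pass, and 21 had a positive difference. Their median was 0.25 log2 units, beside -0.00 for all tested genes. Among those that did not pass, Dkk3 had 0.24 ± 0.08. The potassium channel gene Kcnj3 had 0.06 ± 0.06 and Tbx5, a transcription factor gene, 0.06 ± 0.07. Bmp10, a growth factor gene expressed mainly in the right atrium, had 0.04 ± 0.21. Bmp10 was 0.186 CPM in B6_1, against 38.7 in the next lowest library, and 453.8 in B6_7, the highest.

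Of the ventricular list, 0 of 10 genes were called in either direction, with 4 positive and 6 negative differences and a median of -0.00. Myl2 had means of 4598 ± 593 CPM (SD, n = 31) in the high and 4552 ± 601 (SD, n = 32) in the low class, a log2 difference of 0.01 ± 0.04, and Myl3 had -0.00 ± 0.03. Among 15 sarcomere genes shared by the chambers 0 were called. Of 11 tested sinoatrial node and conduction genes 0 were called and 9 were positive. Shox2, a node transcription factor gene, had 0.44 ± 0.11 (edgeR adjusted p = 0.165) and Vsnl1 0.64 ± 0.17 (adjusted p = 0.214), whereas the pacemaker channel gene Hcn4 had 0.04 ± 0.12. Vsnl1 was near the floor, with medians of 0.41 CPM in the high and 0.25 in the low class. Those of Shox2 were 1.72 and 1.34 CPM, and those of Hcn4 were 6.40 and 5.65.

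**Figure D3:**
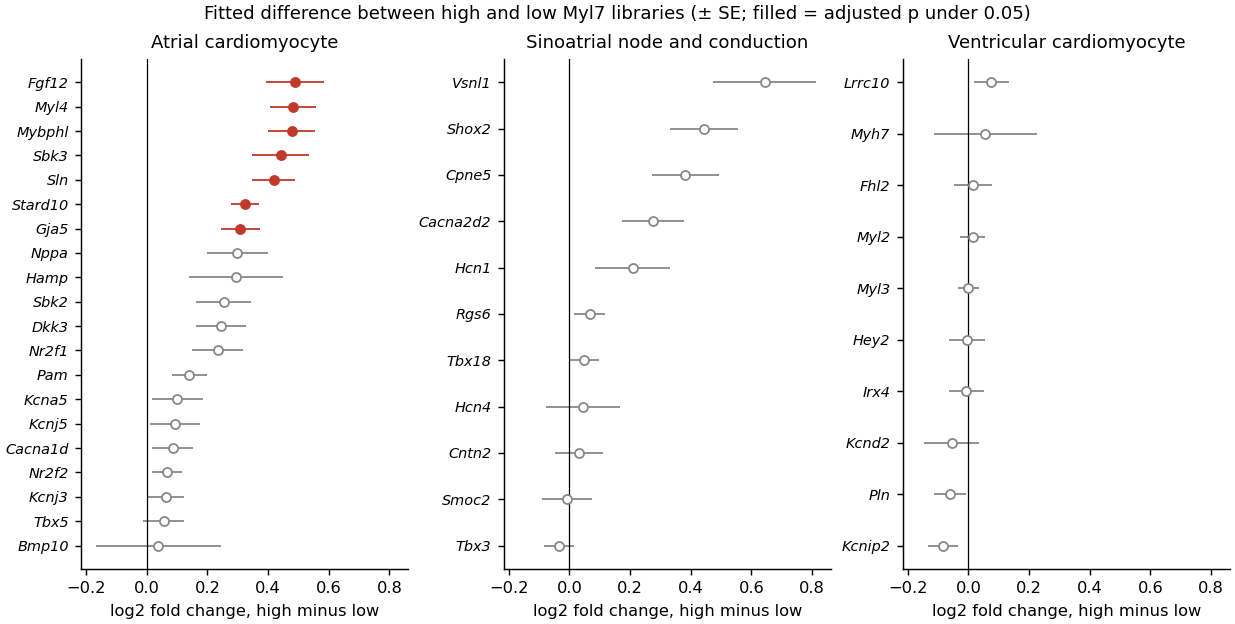
Fitted log2 fold change, high minus low (horizontal axis), with SE bars, for the reported genes of the atrial, sinoatrial node and conduction, and ventricular lists; filled points passed an adjusted p of 0.05. The atrial genes shown lie to the right of 0, and Myl2 and Myl3 lie at 0.01 and -0.00.

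No member of the lists for the other cell types described next passed the test between classes. Outside these lists, Tusc5, an adipocyte gene, and Gja5, which arterial endothelium also expresses, did pass. Of all 16424 tested genes, 0.104% were called and 7963 had a positive difference, so a count of 0 called in a short list is near the background. The part of these cells in the result was not tested beyond a covariate. For white adipocyte genes, 0 of 8 were called and 8 were positive, with a median of 0.91. Their summed level was 48.1 to 155.2 CPM (median 79.8) in the high and 45.8 to 129.8 CPM (median 67.7) in the low class. Plin1, the lipid droplet coat gene, had medians of 4.55 and 2.41 CPM. With Adipoq as a covariate, 9 genes rose in place of 17, of which 8 were among the 17. Stard10, Myl4, Mybphl and Sln were among these. Of the atrial list, 4 genes were called in place of 7. All genes that lost their call had smaller differences than without the covariate. These were 0.44 for Sbk3 (from 0.44), 0.44 for Fgf12 (from 0.49) and 0.27 for Camk1d (from 0.28). Fras1 had 0.40 (from 0.45), Cntfr 0.36 (from 0.38) and Sytl2 0.29 (from 0.34). Gja5 had 0.27 (from 0.31), Olfm1 0.22 (from 0.26) and Tusc5 0.38 (from 0.54, edgeR adjusted p = 0.869 with the covariate).

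For mesothelium and epicardium genes, 0 of 11 were called and 11 were positive, with a median of 0.28 and sums of 59.5 to 166.8 CPM in the high and 42.7 to 122.0 in the low class. Of the neuron list, 7 of 12 were tested, 0 called and 7 positive, with sums of 4.60 to 27.8 and 3.64 to 23.6 CPM. Fibroblast (0 of 12), endothelial (0 of 12) and macrophage genes (0 of 10) had no member called, with medians of 0.01, 0.04 and -0.05. None of the 8 lung and airway genes is in the table.

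The level of Myl7 itself, centred on the strain mean of log2 CPM, was also used in place of the classes. By this slope, 164 genes rose with Myl7 (0.999%) and 4 fell (0.0244%). Without WSB_1, an alternative chosen after seeing the data, 92 rose (0.562%) and 0 fell, and leaving out each library in turn gave 92 to 199. All 17 genes passed by slope, with and without WSB_1. The slope uses the same Myl7 values and libraries as the classes, so this is not separate support. A slope of 1 means a gene that changes in proportion to Myl7. Myl4 had 0.92 ± 0.04 (SE), Mybphl 0.92 ± 0.06, Fgf12 0.90 ± 0.10, Sln 0.84 ± 0.04 and Sbk3 0.84 ± 0.10. Nppa, which did not pass between classes, had 0.85 ± 0.09 (edgeR adjusted p = 5.7e-10). Stard10 had a shallower slope of 0.55 ± 0.04.

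By slope, 13 of the 21 atrial genes rose (12 without WSB_1), 4 of 11 node and conduction genes (4 without), and 0 of 10 ventricular genes. For mesothelium the count was 6 of 11, which fell to 1 without WSB_1, and for white adipocytes 4 of 8 and 3. Of 7 brown adipocyte genes 1 rose, with a median slope of 0.14: Ucp1 had 3.75 ± 0.72. Plin1, of the white adipocyte list, had 1.75 ± 0.35. The level of Ucp1 was near 0 in many libraries. It ran from 0 to 14.3 CPM in the low class (median 0.464) and from 0 to 50.6 in the high class (median 4.50).

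**Figure D4:**
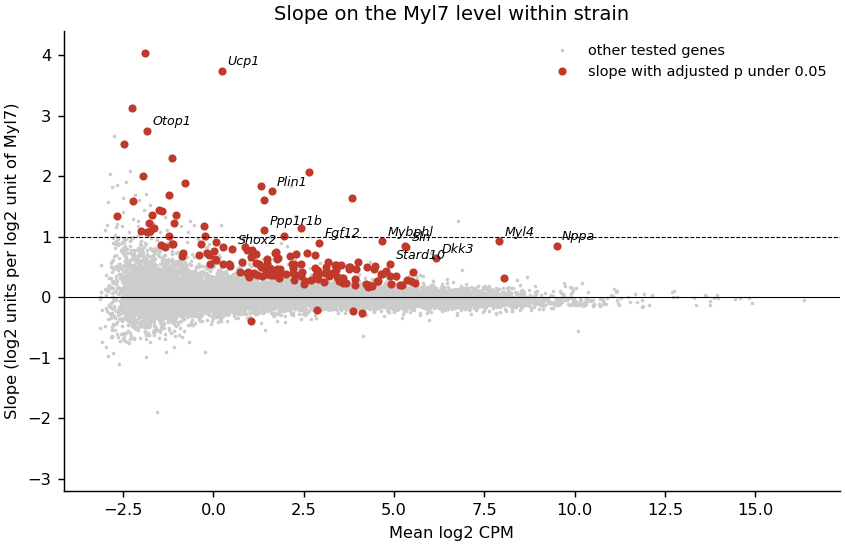
Slope on the strain-centred log2 Myl7 level (vertical axis, log2 units per log2 unit) against mean log2 CPM (horizontal axis) for 16424 genes, with red points for adjusted p under 0.05 and a dashed line at a slope of 1. Myl4, Mybphl and Nppa lie near the dashed line (0.92, 0.92 and 0.85), and Ucp1 lies above it at 3.75.

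The genes most like Myl7 over the 63 libraries, by Pearson correlation of strain-centred log2 CPM among 11040 genes, were Myl4 (r = 0.95, Spearman's rho = 0.95), Sln (0.94 and 0.91), Mybphl (0.92 and 0.91), Stard10 (0.89 and 0.91) and Nppa (0.81 and 0.79). The points share library scaling, and these values are descriptions. Without the 2 libraries farthest from the median, AJ_2 and WSB_6, r was 0.94 for Myl4, 0.92 for Sln, 0.90 for Mybphl and 0.88 for Stard10. The next most alike were Plekha7 (r = 0.78), Rxfp1 (0.77), Fgf12, Ppp1r1b and Sbk3 (0.75 each).

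**Figure D5:**
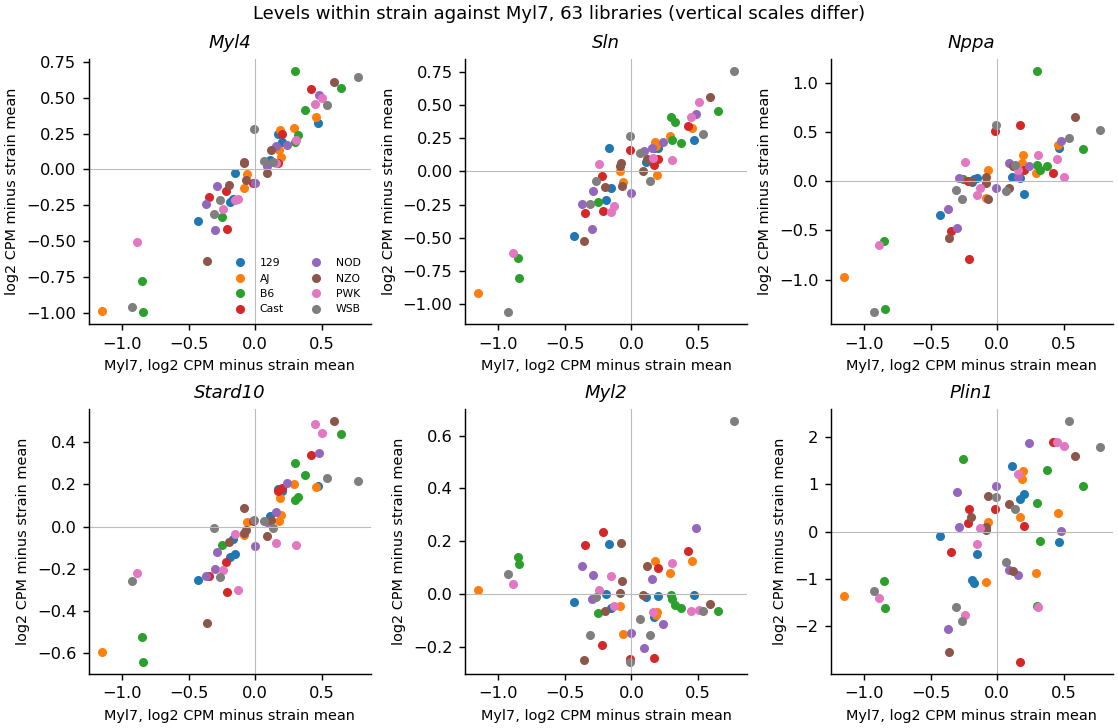
Log2 CPM minus the strain mean for Myl4, Sln, Nppa, Stard10, Myl2 and Plin1 (vertical axes, scales differ) against the same for Myl7 (horizontal axis), 1 point per library, coloured by strain. Myl4 and Sln follow Myl7 (r = 0.95 and 0.94), and WSB_1 is the highest point for Myl2.

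Whether the difference between classes varies among the strains was tested with 7 strain-by-class terms. Of all tested genes, 1 passed (0.00609%), Hps4, chosen for mention after its values were seen, and none of the 17. At an unadjusted p under 0.05 there were 505 of 16424 genes. That is below the share of about 0.05 that would be marked where no gene varies among strains.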

How the data were processed

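RNA-seq of 63 hearts was analysed. Per the labels' protocols, polyA RNA came from frozen, pulverised heart. The deposited table holds expected counts per gene that the authors assigned to GRCm38 (per the submitters' processing notes) with an aligner, counter and strand setting not given in the sources used here; 18.4% of values are not whole (tolerance 1e-06) and were rounded. The authors' deposited log2 variance-stabilised values (DESeq2, per the submitters' processing notes) served only as an alternative.

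The main tool was edgeR 4.0.16 under R 4.3.3, beside DESeq2 1.42.0 and limma 3.58.1 for alternatives. filterByExpr with a minimum count of 10 kept 16425 genes of the table and dropped 2795. TMM factors scaled the libraries. Strain and class were fitted by robust quasi-likelihood (54 residual degrees of freedom), with Benjamini-Hochberg adjustment over 16424 genes without Myl7. Log2 CPM used a prior count of 2. On simulated data for this comparison (16424 genes), 80, 80 and 40 genes were changed by 0.3, 0.5 and 1 log2 units. Of these, 85%, 98.8% and 100% were recovered, with 10 false calls among 16224 unchanged genes. The adjusted p depends on how many genes change, and the real comparison called only 17 genes higher. The recovery rates therefore need not hold for the real comparison, where they were not tested.

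The members, gene lists and tests were chosen with earlier results of these data known. Genes named are all tested members of the atrial, node and ventricular lists, up to 4 with the smallest adjusted p of other lists, up to 12 called genes per direction whose mean log2 CPM was 1 or more, with the same direction in all 8 strains, and the genes most like Myl7. Plekha7, Olfm1, Camk1d and Tusc5 complete the count of called genes. Clone-named and Y-linked genes were counted, not named, and some genes that the rule allows are not reported here. Transcripts of 19 genes had 0 near-identical copies (at least 95% identity over 50% of the shorter). Of 7 promoter motifs, 2 were added after the sequences were read. Alternatives covered scaling, filters, tools, classes, covariates and left-out libraries and strains.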

Additional observations from a re-analysis of the deposited data

Results flagged for a closer look

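In a check of the highest and lowest library of each strain, done for 32 groups of a gene and a strain, 3 stood far from the others. By chance such a check marks about 1 group in 20, and the Myl7 values, which made the classes, are given only as a description. Myl7 in AJ_2 was 93.6 CPM, against 196.3 to 285.5 in the other AJ libraries. Sln in the same library was 25.2 CPM, against 44.9 to 59.7. Myl7 in NZO_6 was 242.1 CPM, against 125.5 to 174.8 in the other NZO libraries.

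Hps4 differed between strains in its class difference (edgeR quasi-likelihood test of 7 strain-by-class terms, adjusted p = 9.28e-06). In Cast the mean was 3.15 CPM in the high and 7.91 CPM in the low class, a log2 difference of -1.32, while the other strains had differences from -0.19 in WSB to 0.08 in NOD.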

How the results depend on the processing

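The count of 17 higher genes was 17 with DESeq2 size factors, 16 without a filter, 17 with limma on log2 CPM and 22 with DESeq2's Wald test. It was 164 higher and 4 lower with the Myl7 level as a covariate (92 higher without WSB_1), 28 with classes from Myl4, 13 with classes from Sln, 35 higher and 1 lower without the libraries nearest the strain median, and 9 with Adipoq as a covariate. It was 9 without strain 129, 8 without B6 and 7 without PWK. With Xist as a covariate, Camk1d and Tusc5 lost their calls (edgeR adjusted p = 0.0652 for each). Without the 5 libraries under 65% of their strain median, chosen after seeing the data, 5 genes rose, all among the 17. Leaving out each library in turn gave 15 to 20 higher and 0 lower genes. Another run, not planned in advance, left out libraries taken to stand apart: WSB_1, AJ_2, AJ_7, AJ_8, Cast_1, Cast_5 and Cast_6. In it Tusc5 did not pass (edgeR adjusted p = 0.0818). The causes were not tested. None of the fold changes of the 17 genes and Nppa reversed in any alternative run. Other named genes are not covered by this, and Hcn4 had a class difference of 0.04 and a slope of -0.03. Stard10, Myl4, Mybphl and Sln passed in every alternative run that tested them, leaving out libraries and strains included. With the replicate number from the titles as a block, 14 genes rose, and Sbk3, Camk1d and Tusc5 did not pass (adjusted p = 0.0715, 0.0568 and 0.157). The labels do not say that a number marks anything shared. The median correlation of same-numbered libraries of different strains was 0.10, with 49.7% of pairs over 0.1, against -0.02 and 27.5% for different numbers. In every strain but PWK and WSB, libraries numbered 1 to 4 had Xist over 100 CPM and those with higher numbers did not. The main fit did not use the numbers as a block, and what same-numbered libraries share was not tested. The count of genes that vary among strains was 1 in all 4 alternatives.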
